A study of Mus musculus with 6 samples.

Results

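ON cone bipolar nuclei are described here: 153 of the 55230 retinal nuclei that passed the quality limits. They were chosen by marker transcripts alone. A nucleus needed a UMI (a unique molecular identifier, the count of 1 captured RNA molecule) of at least 2 of 6 genes of the ON light response, Trpm1, Grm6, Gpr179, Isl1, Nyx and Lrit3. It also needed a UMI of at least 1 of 7 genes of ON cone bipolar types, Scgn, Kcng4, Sox6, Cck, Igfn1, Cpne9 and Chrm2, no UMI of Prkca, the rod bipolar marker, and none of Grik1, an OFF cone bipolar receptor. At most 1 UMI in all was allowed over 9 genes of other retinal cells, Slc1a3, Gad1, Gad2, Slc6a9, Rbpms, Slc17a6, Lhx1, Arr3 and Pde6c. The values of these genes therefore describe the choice and are given without a test.

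Bipolar cells carry signals from photoreceptors to the inner retina. In ON bipolar cells glutamate from the photoreceptor activates the receptor mGluR6 (Grm6) and, through a Go protein, closes the TRPM1 channel, so that light, which lowers glutamate, opens it. Rod bipolar cells pool rod signals by this route, ON cone bipolar cells carry cone signals by the same route in several types that end at different depths of the inner retina, and OFF cone bipolar cells use ionotropic glutamate receptors and respond with the opposite sign.

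The series profiled nuclear RNA of whole retinas from WT C57BL6/J mice with 10x Genomics 3′ chemistry. The group aged 18 months (3 libraries) was set against the group aged 3 months (3 libraries); both ages share the strain and genotype, and no treatment is labelled. The labels do not say whether a library is 1 animal or a pool. The ON cone bipolar nuclei numbered 18, 53 and 24 in replicates 1, 2 and 3 at 18 months, against 27, 19 and 12 at 3 months. They held 26887 to 102441 UMIs per library and 286262 in all, with a median of 1578 UMIs per nucleus. For comparison, 715 rod bipolar nuclei (a UMI of at least 2 of the same 6 ON genes and of Prkca, and none of Grik1 or the 7 cone bipolar genes) and 381 OFF cone bipolar nuclei (Grik1 with at least 1 of 6 further bipolar genes, Fezf2 and Col11a1 among them, and no Prkca) were chosen from the same libraries. OFF cone bipolar nuclei were also allowed at most 1 UMI over the 6 ON genes, and all 3 choices had the same limit on genes of other cells. Levels below are CPM, the UMIs of a gene per 1000000 UMIs of the chosen nuclei of a library, with no further normalisation; log2 fold changes come from a fit that does normalise and are given with their standard error. Where an age has 3 values, they follow the order of replicates 1, 2 and 3.

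The libraries differed in ways that touch every result. The limit of 5% mitochondrial UMIs removed 1.12% to 9.16% of barcodes at 18 months and 9.36% to 41.9% at 3 months, and the median mitochondrial share of the ON cone bipolar nuclei was 0.747% to 1.35% at 18 months and 0.975% to 2.61% at 3 months. Replicate 1 of both ages was processed with one release of Cell Ranger and the other libraries with a later one. The libraries shared 11 to 74 cell barcodes per pair, and none of these belonged to an ON cone bipolar nucleus.

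The library of 18-month replicate 3 stood apart. None of its 24 ON cone bipolar nuclei had a UMI of at least 3 of the 6 ON genes, against 12 of 18 and 19 of 53 in the other 18-month libraries and 11 of 27, 8 of 19 and 3 of 12 at 3 months. Cdh9, a cadherin that marks type 5 ON cone bipolar cells and was not used by the rule, stood at 636, 664 and 63.0 CPM at 18 months, against 419, 1021 and 521 at 3 months; in 18-month replicate 3 this was 2 UMIs. Counts of calls, and the values of some genes whose highest or lowest level it holds, are also given without this library. How far the nuclei of that library are ON cone bipolar cells was not tested.

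Cdh9 was higher in ON cone bipolar nuclei of 5 libraries than in any library of the other kinds of nuclei. It averaged 554 ± 315 CPM in ON cone bipolar nuclei, 24.1 ± 19.0 in rod bipolar nuclei, 32.7 ± 21.1 in OFF cone bipolar nuclei and 33.3 ± 8.06 in all other nuclei (SD, n = 6 libraries each). Gnb3, the G protein beta subunit of the ON cascade, stood at 509, 615 and 189 CPM at 18 months, against 343, 1081 and 855 at 3 months, and averaged 169 ± 41.8 in all other nuclei. Cabp5, a calcium-binding protein of rod bipolar and several cone bipolar types, averaged 148 ± 92.8 in ON cone bipolar nuclei and 26.8 ± 8.43 in all other nuclei, and Otx2, a transcription factor of photoreceptors and bipolar cells, 281 ± 159 and 97.6 ± 18.9. The 5 genes of the rod bipolar list gave 61 UMIs over all 153 nuclei, of which Cabp5 gave 37, Vstm2b 8, Car8 8 and Sebox 7. Their summed level averaged 235 CPM in ON cone bipolar nuclei, 841 in rod bipolar nuclei and 134 in all other nuclei. Of 10 genes of OFF types, 8 gave UMIs (162 in all, 85 of them from Cdh8), and Fezf2 and Col11a1 gave 0. Their summed level averaged 578 CPM in ON cone bipolar nuclei, 277 in rod bipolar nuclei, 1492 in OFF cone bipolar nuclei and 489.8 in all other nuclei.

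RNA of other cells was also present. The summed level of 20 rod genes was 8899 to 29940.1 CPM in ON cone bipolar nuclei, 14113 to 34210.5 in rod bipolar nuclei and 9243 to 24749 in OFF cone bipolar nuclei. The 11 amacrine genes summed to 330.2 to 1637, with the highest value in 18-month replicate 3, the 12 Müller glia genes to 960.5 to 2382 and the 10 ganglion cell genes to 178 to 787. The 9 cone genes summed to 661 to 1831 (Cnga3 at 0), the 7 horizontal cell genes to 409 to 707, the 9 microglia genes to 37.2 to 178 (C1qa, Tmem119 and Ctss at 0) and the 11 vascular and pigment epithelium genes to 0 to 298 (Cldn5, Cspg4 and Best1 at 0). The part of this RNA in the results was not tested.

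**Figure D1:**
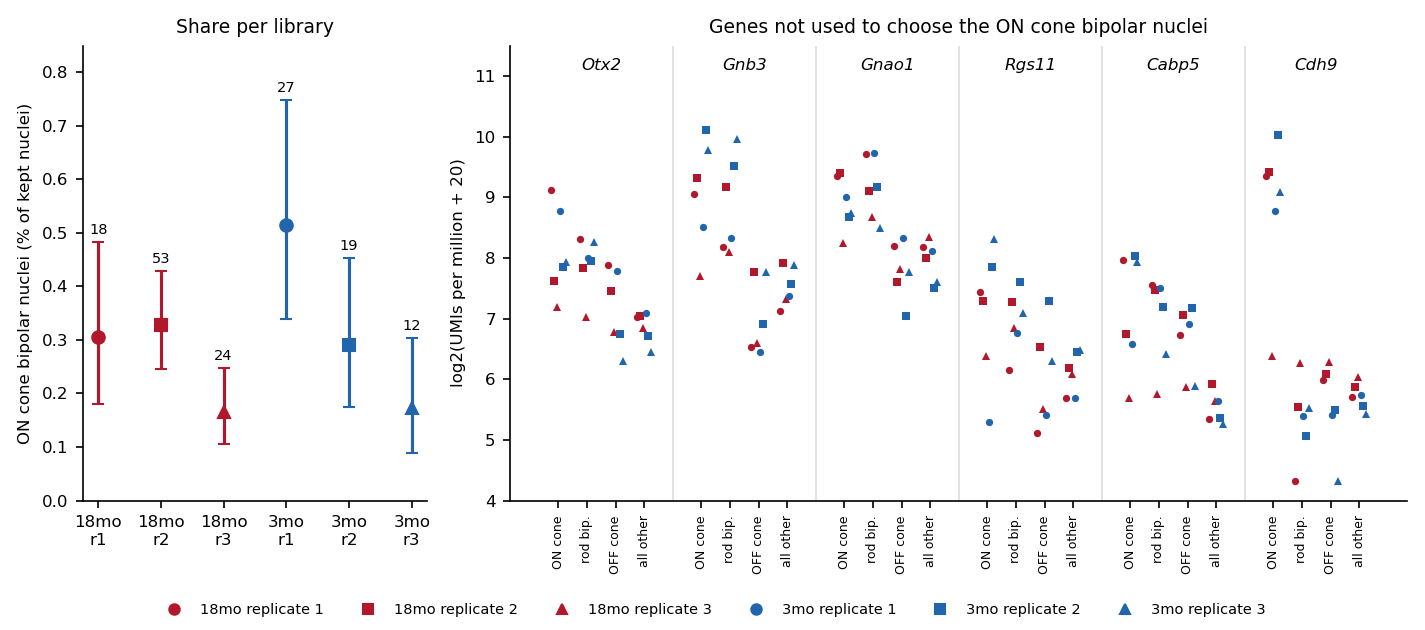
Left, the share of kept nuclei that met the ON cone bipolar rule in each library (%, with exact 95% binomial intervals; the number of nuclei stands above each point). Right, log2(CPM + 20) of 6 genes the rule did not use, 1 point per library, in ON cone bipolar, rod bipolar, OFF cone bipolar and all other nuclei; Cdh9 is high in ON cone bipolar nuclei of 5 libraries and near the other nuclei in 18-month replicate 3.

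The ON genes that chose the nuclei were detected to different extents. Trpm1, the cation channel, had a UMI in 86.3% of the ON cone bipolar nuclei (132 of 153), against 9.31% of 14914 rod nuclei of the same libraries (at least 3 of 7 rod genes), which should lack the gene and had a median depth of 1009 UMIs. Isl1, a transcription factor of ON bipolar cells, was found in 57.5% (3.92% of rod nuclei), Gpr179, which anchors the RGS proteins of the cascade, in 44.4% (1.80%), and Grm6 in 40.5% (2.12%). Lrit3 and Nyx, leucine-rich repeat proteins of the postsynaptic complex, were found in 9.80% and 5.88% (3.31% and 0.329% of rod nuclei). Of the 153 nuclei, 100 had exactly 2 of the 6 genes, 40 had 3, 11 had 4 and 2 had 5. Just outside the limits lay 478 nuclei with 1 ON gene that met all other conditions, 97 with a single Prkca UMI, 27 with a single Grik1 UMI and 38 with 2 UMIs of the genes of other cells.

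The 7 cone bipolar genes were sparser. Sox6, a transcription factor, had a UMI in 60 of the 153 nuclei, Scgn, the calcium sensor secretagogin, in 33, Cck (cholecystokinin), Igfn1 and Cpne9 in 21 each, Kcng4, a silent potassium channel subunit that marks type 5 cells, in 14, and Chrm2, the M2 muscarinic receptor, in 13. Most nuclei, 126, had 1 of the 7 genes, 24 had 2 and 3 had 3, and 87 of the 153 rested on a single UMI of these genes. A further 253 nuclei met every other condition with 0 of the 7. Of ON nuclei without Prkca, 37.7% (153 of 406) had one of the 7 genes. The share was 29.1% (293 of 1008) in ON nuclei with a Prkca UMI and 12.5% in rod nuclei, which sets the background for such detections; median depths were 1314, 1803.5 and 1009 UMIs. Nuclei with at least 1000 UMIs were then thinned to 1000 UMIs each. Shallower nuclei were left out: 125 without Prkca, 148 with Prkca and 7363 rod nuclei. The share was then 32.4% (95% exact interval 26.9% to 38.2%) of 281 ON nuclei without Prkca. It was 16.98% (14.5% to 19.7%) of 860 with Prkca and 11.4% (10.7% to 12.2%) of 7551 rod nuclei. These intervals cover counting error only. OFF cone bipolar nuclei were not part of this comparison, and some of the 7 genes were common in them. Of the 381 OFF cone bipolar nuclei, 68 had a UMI of Sox6, 37 of Scgn and 30 of Chrm2. Cpne9 was found in 9 of them, Kcng4 in 6, Cck in 5 and Igfn1 in 1. A UMI of Sox6, Scgn or Chrm2 alone therefore does not set ON apart from OFF cone bipolar nuclei.

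The nuclei divided by which of the 7 genes they held, and other genes moved with that division. The genes in this and the next paragraph were chosen after their values were seen, so they are a description with no test. The 60 nuclei with Sox6 held 610 of the 865 UMIs of Cntn5, a contactin that acts in cell adhesion, which is 6091 CPM in them and 1370 in the other 93 nuclei, and the level was higher in the Sox6 nuclei in 6 of 6 libraries. Nfia, a transcription factor of the nuclear factor I family, stood at 1218 and 139.7 CPM (122 of 148 UMIs) and was higher in 5 of 6 libraries, the exception being 18-month replicate 3. Meis2, a homeobox factor, stood at 759 and 193 and Nlgn1, the postsynaptic adhesion protein neuroligin 1, at 769 and 215, each higher in 6 of 6 libraries. Meis2 and Nlgn1 also passed as lower in ON than in OFF cone bipolar nuclei (below), and Meis2 is on the amacrine gene list. The part of OFF cone bipolar or amacrine RNA in the Sox6 nuclei was not tested. Lower in Sox6 nuclei in 6 of 6 libraries were Cdh18, a cadherin, at 349.5 and 2568, and Grm7, a presynaptic glutamate receptor, at 249.7 and 946.

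Igfn1 nuclei had another set of genes. Chrm3, the M3 muscarinic receptor, stood at 1649.9 CPM in the 21 Igfn1 nuclei and 181 in the other 132 nuclei, and 20 of the 21 held a UMI of it, against 15 of 132. It was higher in all 5 libraries that had Igfn1 nuclei; 18-month replicate 3 had none. Nmnat3, an enzyme of mitochondrial NAD synthesis, stood at 926 and 176 (5 of 5 libraries), Cdh9 at 1296 and 388 (4 of 5) and Pcdh17, a protocadherin, at 488 and 66.1 (4 of 5). Cntn5 was found in 1 of the 21 Igfn1 nuclei, against 86 of the other 132. Among the 14 Kcng4 nuclei Cdh9 stood at 1492, against 458 in the other 139, and was higher in 4 of 6 libraries, and 4 nuclei held both Kcng4 and Igfn1. Cdh8, a cadherin, stood at 641 in Scgn nuclei, against 175 in the other nuclei (5 of 6 libraries), and at 731 in Cck nuclei, against 238 (4 of 5), and 5 nuclei held both genes. In Cpne9 nuclei Pcdh11x, a protocadherin, stood at 891 against 67.9 and Tenm1, a teneurin of synaptic matching, at 835 against 59.9, each in 4 of 5 libraries. Tenm1 also passed as lower in ON than in OFF cone bipolar nuclei (below). Of the 32 Pcdh11x UMIs in Cpne9 nuclei 16 came from 1 nucleus of 3-month replicate 1, and without that library the level was 506, against 70.1.

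Nuclei with a Kcng4 UMI were tested against those without one with edgeR's quasi-likelihood test on UMIs summed per library, each library being a block. Kcng4 nuclei numbered 1 to 4 per library, under the minimum of 10 set for the tests, so the test was run with no minimum, a choice made after the data were seen. Of 177 genes tested 0 passed (0%), with 13 at an unadjusted p under 0.05. Cdh9 gave 1.22 ± 0.42 log2 and did not pass (edgeR adjusted p = 0.312). DESeq2 called 1 gene, Hs3st4, a heparan sulfate sulfotransferase (log2 fold change 1.39 ± 0.38, adjusted p = 0.0448), which edgeR did not (adjusted p = 0.304). Without 3-month replicate 2 edgeR called 1 gene, Grm7 (log2 fold change -2.98 ± 0.73, adjusted p = 0.00643), lower in Kcng4 nuclei. Every nucleus without Kcng4 had met the rule through another of the 7 genes, so the rule itself shapes this contrast. In 3-month replicate 1 and 18-month replicate 3 the Kcng4 side was 1 nucleus. The test therefore cannot decide how Kcng4 nuclei differ, and neither call is read as a trait of them.

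**Figure D2:**
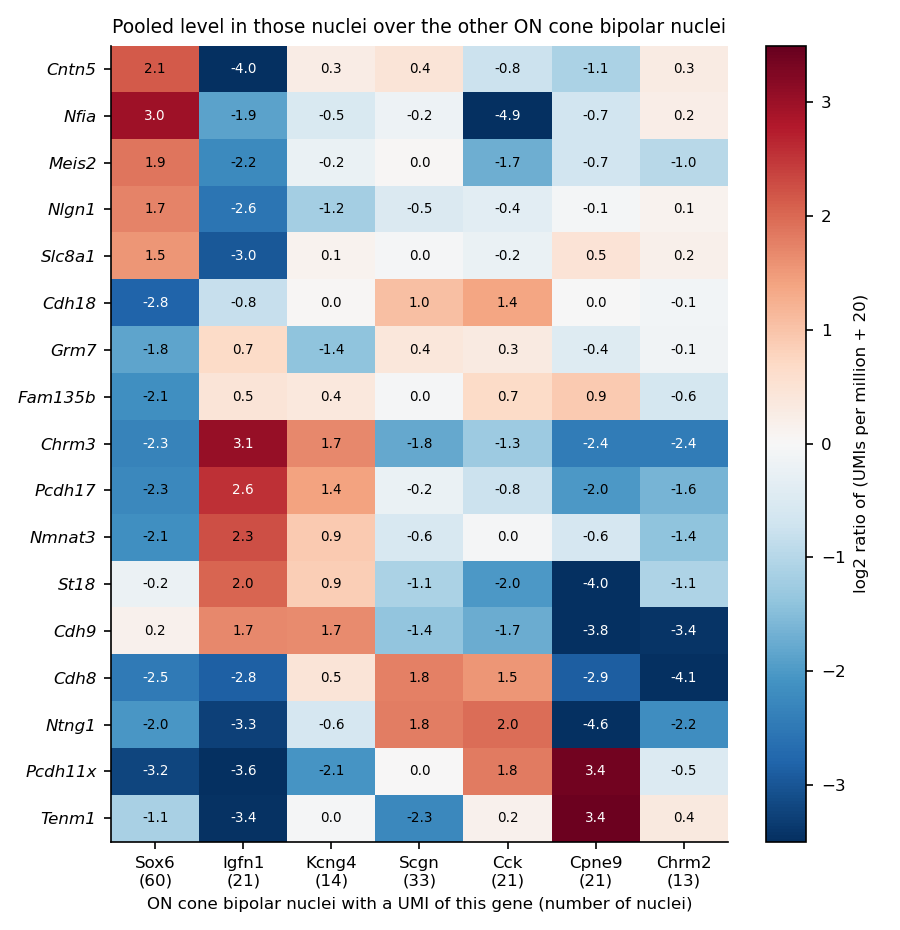
Colour and numbers give the log2 ratio of (CPM + 20), pooled over libraries, in ON cone bipolar nuclei with a UMI of the gene under each column over the ON cone bipolar nuclei without one; the number of nuclei is in brackets. Cntn5, Nfia, Meis2 and Nlgn1 are highest in Sox6 nuclei, Chrm3, Pcdh17 and Nmnat3 in Igfn1 nuclei, and Pcdh11x and Tenm1 in Cpne9 nuclei; rows and columns were chosen after the values were seen.

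The first comparison asked in which genes ON cone bipolar nuclei differed from rod bipolar nuclei of the same libraries, which use the same receptor and channel. Of 1886 genes tested, with all genes of both choices left out, 202 passed at an adjusted p at or below 0.05 in edgeR's quasi-likelihood test with a term per library (10.7%): 97 were higher in ON cone bipolar nuclei (5.14%) and 105 lower (5.57%). Adhesion molecules, potassium channel subunits and glutamate receptors were among the higher genes. Regulators of the Go cascade, Car8 and Lrrtm4 were among the lower ones. Leaving out 18-month replicate 3 gave 270 genes. The count was 114 when 18-month replicate 2 was left out and 127 when 3-month replicate 1 was, 70 with no library term and 88 with a mitochondrial limit of 2%, which also dropped 3-month replicate 2, left with 9 ON cone bipolar nuclei. Median depth was 1181 to 2060 UMIs per nucleus by library in ON cone bipolar nuclei and 1360.5 to 2126 in rod bipolar nuclei. Levels in ON cone bipolar nuclei are those of the mix of nuclei that the 7 cone bipolar genes let in. The same holds against OFF cone bipolar nuclei.

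Ptprz1 (ENSMUSG00000068748, chr6:22875502-23052916, plus strand, mm10), a receptor tyrosine phosphatase with a proteoglycan ectodomain, had the largest increase among the genes named by rule. Its level was 189 to 1351 (median 966) CPM in the ON cone bipolar nuclei of the 6 libraries, against 78.0 to 159.9 (median 109) in rod bipolar nuclei (log2 fold change 2.75 ± 0.29, adjusted p = 1.26e-05). The groups did not overlap, and 18-month replicate 3 was the lowest ON cone bipolar library. Zfp804b (ENSMUSG00000092094, chr5:6769010-7344756, minus strand), a zinc finger gene, stood at 1543 to 14768 (median 8155), against 728 to 1488 (median 1280.3) (log2 fold change 2.59 ± 0.30, adjusted p = 2.85e-05). It was detected in 85.6% of the ON cone bipolar nuclei, and the nucleus with the most held 95 of its 2450 UMIs there. Samsn1, an adaptor protein of lymphocytes, stood at 94.5 to 2131 (median 1432), against 129 to 259.8 (median 173) (log2 fold change 2.74 ± 0.29, adjusted p = 1.26e-05); it is named after its value was seen, because 18-month replicate 3 went the other way. Chrm3 stood at 189 to 1042 (median 388), against 52.0 to 173 (median 91.1), a log2 fold change of 2.19 ± 0.32. The 21 Igfn1 nuclei held 98 of its 139 UMIs in ON cone bipolar nuclei. Slc8a1, the sodium-calcium exchanger NCX1, stood at 504 to 1066 (median 571), against 26.0 to 426 (median 174), with no overlap (1.85 ± 0.33 log2). Dlc1, a GTPase-activating protein, and Prr16 were higher by 2.13 and 2.17 on the log2 scale, also without overlap.

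The genes lower in ON cone bipolar nuclei reached larger ratios, several of them from few UMIs in these nuclei. Over the 153 nuclei Cep112 gave 8 UMIs, 5 of them in 1 nucleus, Car8 8, Strip2 9, Kalrn 13, Ptprr 14 and Lrrtm4 90. The size of such ratios is unsure: over the refits described at the end Cep112 ranged from -9.06 to -3.82 log2 and Kalrn from -5.55 to -2.94. Cep112, a centrosomal protein, had UMIs in 3 of the 6 ON cone bipolar libraries at 0 to 150.1 CPM, against 255 to 819 (median 572) in rod bipolar nuclei (log2 fold change -4.28 ± 0.47, adjusted p = 1.27e-05). Car8 (ENSMUSG00000041261, chr4:8143362-8239041, minus strand), a carbonic anhydrase-related protein that is a known rod bipolar marker, stood at 0 to 63.0 (median 19.5), against 159.8 to 528 (median 366) (log2 fold change -3.62 ± 0.45, adjusted p = 5.07e-05). Lrrtm4 (ENSMUSG00000052581, chr6:80018877-80810143, plus strand), a leucine-rich repeat synaptic organiser found at rod bipolar axon terminals in mouse, stood at 0 to 756 (median 291), against 2149 to 4563 (median 3602) (log2 fold change -3.54 ± 0.38, adjusted p = 1.26e-05). None of these 3 overlapped. Kalrn, a guanine nucleotide exchange factor, stood at 0 to 63.0 (median 54.0), against 179 to 535 (median 398), and Ptprr, a phosphatase of MAP kinases, at 0 to 94.5 (median 19.0), against 167 to 557 (median 372); both were without overlap. Also lower in 6 of 6 libraries were Strip2 (log2 fold change -3.35), Nhlrc2 (-1.83), Ccdc136 (-2.19) and Kcnmb2, a subunit of calcium-activated potassium channels (-2.01). Asic2, an acid-sensing channel, was lower in 6 of 6 libraries (-2.57 ± 0.40 log2) but overlapped, because it stood at 2236 CPM in the ON cone bipolar nuclei of 18-month replicate 3 and at most 857 in those of the other libraries; without that library it was -3.02 log2.

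**Figure D3:**
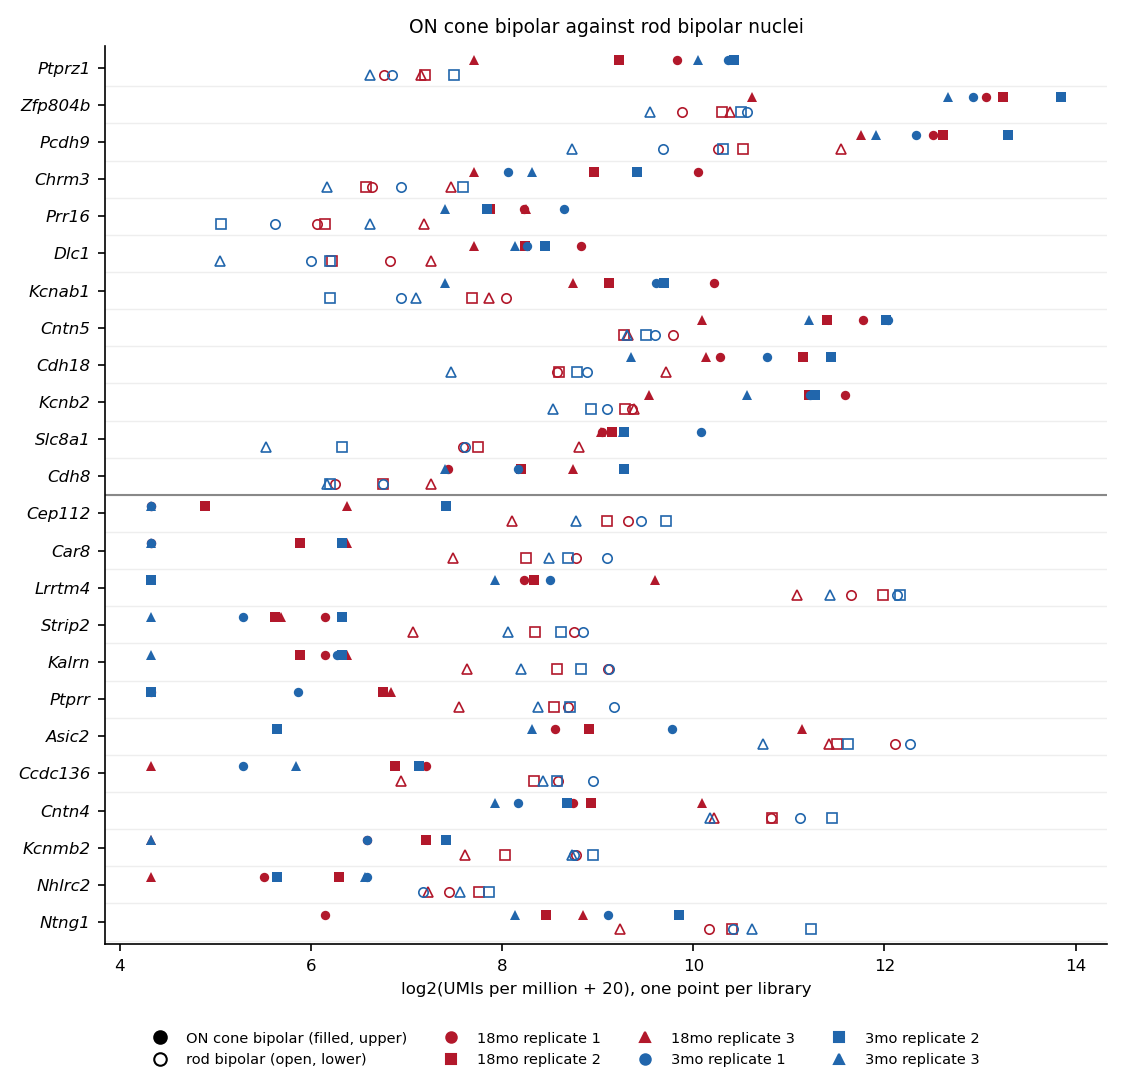
log2(CPM + 20) per library in ON cone bipolar nuclei (filled) and rod bipolar nuclei (open) for the 12 genes with the largest increases (above the line) and decreases (below it) by the naming rule. Of these 24 genes, 10 higher and 9 lower ones show no overlap; 18-month replicate 3 (red triangles) often lies nearest the rod bipolar points.

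Of 9 listed proteins of the mGluR6 cascade 8 were tested, of which 2 were lower in ON cone bipolar nuclei, 0 higher and 6 did not pass. Over all 1886 genes tested 5.57% were lower and 5.14% higher. Rgs7 (ENSMUSG00000026527, chr1:175059087-175492500, minus strand), which with Gnb5 speeds the shut-off of Go, stood at 112 to 598 (median 464) CPM, against 1001 to 1598 (median 1425) (log2 fold change -1.70 ± 0.22, adjusted p = 7.76e-05), with no overlap. Pcp2, a modulator of Go, stood at 114 to 630.3 (median 320.5), against 262 to 1221 (median 769) (log2 fold change -1.17 ± 0.20, adjusted p = 0.000665). Gnao1, the Go alpha subunit, stood at 283 to 654 (median 452), against 338 to 828 (median 542) (-0.26 ± 0.19 log2), and Gnb3 at 189 to 1081 (median 562), against 255 to 976 (median 427) (0.21 ± 0.20 log2). Neither passed, nor did Gnb5 (-0.30 ± 0.24), the gamma subunit Gng13 (-0.24 ± 0.27), Rgs11 (0.20 ± 0.33) or its anchor Rgs9bp (-0.05 ± 0.25). The median over the 8 was -0.25 on the log2 scale, against -0.06 over all genes tested.

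Adhesion and wiring genes held the most calls of the lists: 17 higher and 10 lower of 47 tested, with 81 listed and a median of 0.31 on the log2 scale, against -0.06 over all genes tested. The share over all 1886 genes tested was 5.14% higher and 5.57% lower. Cntn5 (ENSMUSG00000039488, chr9:9660891-10904775, minus strand) stood at 1071 to 4169 (median 3084) CPM, against 601 to 865 (median 661) (log2 fold change 1.99 ± 0.20, adjusted p = 8.31e-06), with no overlap. The 60 Sox6 nuclei held 610 of its 865 UMIs in ON cone bipolar nuclei. Pcdh9, a protocadherin, stood at 3432 to 9995 (median 5468), against 403 to 2975 (median 1227) (log2 fold change 2.22 ± 0.28, adjusted p = 6.60e-05). Cdh18 stood at 632 to 2761 (median 1476), against 156 to 818 (median 394) (1.91 ± 0.25 log2), and Cdh8 at 149 to 600.3 (median 269.9), against 52.0 to 133 (median 72.0) (1.85 ± 0.26). The receptors of netrin Dcc (1.27) and Unc5d (1.33), the ephrin receptors Epha5 (1.86) and Epha7 (1.06), Cdh11 (1.69), the teneurin Tenm2 (0.93), and the latrophilins Adgrl2 (0.85) and Adgrl3 (1.04) were also higher. Lower were Cntn4, another contactin, at 223 to 1071 (median 399), against 1132 to 2785 (median 1782) (log2 fold change -2.01 ± 0.29, adjusted p = 0.000214), netrin-G1 (Ntng1, -1.81), Csmd1 (-1.58), neurofascin (Nfasc, -1.55), Cntn6 (-1.47) and Tenm3 (-0.79). Sdk1, sidekick 1, stood at 240.1 to 472 (median 334), against 689 to 1481 (median 919), without overlap (-1.53 log2). Epha5, Epha7, Unc5d, Cdh11 and Adgrl2 were higher in 5 of 6 libraries, the exception being 18-month replicate 3.

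More receptor and channel genes were higher than lower among those that passed. These lists held few tested genes, and over all 1886 genes tested 5.14% were higher and 5.57% lower. Of 10 glutamate receptor genes tested 3 were higher and 0 lower. Among the 3 were the AMPA receptor subunit Gria2 at 567 to 1111 (median 896) CPM, against 246 to 727 (median 377) (1.10 ± 0.25 log2) and the metabotropic receptor Grm7 (0.93). Of 9 genes on the inhibitory receptor list 3 were higher and 0 lower. Gabrr2, a subunit of ionotropic GABA receptors, stood at 94.5 to 585 (median 519), against 126 to 313 (median 195) (log2 fold change 1.12 ± 0.24, adjusted p = 0.00431), and was higher in 5 of 6 libraries. Gabbr2, a GABA-B receptor subunit, stood at 112 to 234 (median 152), against 39.0 to 109.9 (median 51.3), with no overlap (1.51 ± 0.30 log2). Lrrc4c (1.39) is on that list but is an adhesion partner of netrin-G1. Of 11 potassium and HCN channel genes 2 were higher and 1 lower. Kcnb2, the Kv2.2 subunit, stood at 724 to 3051 (median 2357), against 351 to 647 (median 566) (log2 fold change 1.86 ± 0.23, adjusted p = 6.60e-05), without overlap. Kcnab1, an auxiliary beta subunit, was higher by 2.01 ± 0.30 log2 and Kcnh5 lower (-1.47). The sodium leak channel Nalcn was higher (0.74).

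Of 24 release genes tested, 1 was higher and 2 lower, where 10.7% of all 1886 genes tested passed. Rims1, an active zone scaffold, stood at 324 to 566 (median 388) CPM, against 52.0 to 411 (median 190.5) (1.04 ± 0.25 log2, adjusted p = 0.0122). Cacna2d3, an accessory calcium channel subunit (-0.94), and Unc13b, a vesicle priming factor (-0.75), were lower. The glutamate transporter Slc17a7 (-0.27 ± 0.20), synaptotagmin 1 (Syt1, 0.05 ± 0.13) and Cacna1f (-0.08 ± 0.27), the calcium channel of ribbon synapses, did not pass. Of 12 transcription factors tested 3 were higher: Nfia at 157 to 971 (median 460.5), against 33.3 to 285 (median 103) (1.96 ± 0.39 log2, 5 of 6 libraries), Zfhx4 (0.88) and Rora (0.67). Of 20 rod genes tested, Nr2e3 (-0.92) and Prph2 (-0.52) were lower, 19 of the 20 log2 values lay below 0, and their part in the other results was not tested. Of 71 ribosomal protein genes 0 passed, with 0 at an unadjusted p under 0.05, and of 56 nuclear genes of oxidative phosphorylation 2 were lower.

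Promoter sequences of the called genes were searched for 2 homeodomain core motifs, since homeodomain factors such as Otx2 act in bipolar cells: TAATCC on either strand (GGATTA on the other) and TAATTA, which reads the same on both. RefSeq promoters (GRCm38.p6, 250 bases before to 50 after the start) were matched for 83 of the 97 higher genes, 78 of the 105 lower genes and 1462 of all 1886 genes tested. TAATTA was found in 10.8% of the higher, 7.69% of the lower and 3.76% of all tested genes, against 6.12% of all 27025 RefSeq genes, and TAATCC in 7.23%, 7.69% and 10.6%, against 8.14%. The motifs were counted separately and may overlap. A match is a run of letters and not a shown site. The promoters of Epha5 and Gabrr2 (higher) and Cntn4 (lower, the later of its 2 starts) are given as examples with a motif from the adhesion and receptor lists, 5′ to 3′ on the strand of the gene, with the motifs in capitals.
Epha5, chr5:84417333-84417632, minus strand: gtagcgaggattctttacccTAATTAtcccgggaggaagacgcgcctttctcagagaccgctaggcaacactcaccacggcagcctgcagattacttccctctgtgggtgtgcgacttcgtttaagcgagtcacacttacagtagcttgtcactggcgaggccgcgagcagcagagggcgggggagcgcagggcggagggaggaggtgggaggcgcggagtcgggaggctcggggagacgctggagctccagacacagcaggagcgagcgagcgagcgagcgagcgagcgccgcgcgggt
Gabrr2, chr4:33062862-33063161, plus strand: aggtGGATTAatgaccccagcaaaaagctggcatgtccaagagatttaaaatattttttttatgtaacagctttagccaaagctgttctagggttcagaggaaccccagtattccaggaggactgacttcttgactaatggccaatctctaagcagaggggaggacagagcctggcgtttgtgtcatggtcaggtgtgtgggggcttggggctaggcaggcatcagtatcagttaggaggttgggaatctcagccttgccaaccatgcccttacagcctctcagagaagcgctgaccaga
Cntn4, chr6:106118692-106118991, plus strand: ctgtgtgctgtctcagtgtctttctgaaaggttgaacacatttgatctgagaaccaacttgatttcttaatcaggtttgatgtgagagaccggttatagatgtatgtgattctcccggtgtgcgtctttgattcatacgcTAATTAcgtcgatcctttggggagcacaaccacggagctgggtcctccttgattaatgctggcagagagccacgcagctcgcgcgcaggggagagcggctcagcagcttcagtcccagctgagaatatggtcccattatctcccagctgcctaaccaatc

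The second comparison set ON cone bipolar nuclei against OFF cone bipolar nuclei of the same libraries, which share cone input but not the receptor. It shares its ON cone bipolar libraries with the first comparison, so the values of both are given side by side and not counted as independent. Of 1103 genes tested 108 passed (9.79%): 48 were higher in ON cone bipolar nuclei (4.35%) and 60 lower (5.44%). Cascade proteins, Fam135b, Cntn5 and Gabrr2 were among the higher genes, and adhesion genes of the Dscam, Robo and contactin-associated families, sodium and A-type potassium channel genes among the lower ones. Without 18-month replicate 3 the count was 145, without 18-month replicate 1 or 2 it was 49 in each case, 55 without 3-month replicate 1, 60 without the library term and 21 with a mitochondrial limit of 2%, a setting that lacks 3-month replicate 2. Median depth of the OFF cone bipolar nuclei was 1200.5 to 1902 UMIs by library.

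Of the 5 cascade genes tested here 3 were higher and 0 lower, where 4.35% of all 1103 genes tested were higher. Gnb3 (ENSMUSG00000023439, chr6:124834240-124840275, minus strand) stood at 189 to 1081 (median 562) CPM in ON cone bipolar nuclei, against 67.0 to 198 (median 88.5) in OFF cone bipolar nuclei (log2 fold change 2.12 ± 0.27, adjusted p = 0.000713), higher in 6 of 6 libraries. Gnao1 stood at 283 to 654 (median 452), against 112 to 302 (median 201) (log2 fold change 1.13 ± 0.24, adjusted p = 0.0111), and Gnb5 at 186 to 449 (median 348), against 123 to 294 (median 151) (log2 fold change 0.80 ± 0.24, adjusted p = 0.0444). Rgs7 (-0.15 ± 0.28 log2) and Pcp2 (0.92 ± 0.36) did not pass. The median of the 5 was 0.92, against -0.01 over all genes tested. Gnb3 is also expressed in cones; the summed cone genes were 661 to 1831 in ON and 260.0 to 1032 in OFF cone bipolar nuclei, Gnb3 itself being one of them, and Cnga3 was at 0 in both.

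The largest increase among the genes named by rule was that of Fam135b (ENSMUSG00000036800, chr15:71431609-71727838, minus strand), at 220.4 to 1771 (median 967) CPM, against 24.9 to 212 (median 153) (log2 fold change 2.57 ± 0.49, adjusted p = 0.00617), with no overlap. Cntn5 stood at 1071 to 4169 (median 3084), against 330.0 to 1060.4 (median 945) (log2 fold change 1.80 ± 0.34, adjusted p = 0.00555), also with no overlap; its log2 fold change over rod bipolar nuclei was 1.99. Atp2b1, a calcium pump of the plasma membrane, stood at 661 to 1201 (median 895), against 268 to 563 (median 368) (log2 fold change 1.15 ± 0.22, adjusted p = 0.00617), without overlap. Gabrr2 stood at 94.5 to 585 (median 519), against 0 to 180.0 (median 106) (1.89 ± 0.33 log2), and overlapped because of 18-month replicate 3, without which it was 1.99 log2. Gpc6, a glypican, was higher by 1.79 ± 0.28 log2, Ptprz1 by 1.56 ± 0.30, the ephrin receptor Epha7 by 1.38 ± 0.25 and Kcnab1 by 1.39 ± 0.26. Shank2, a postsynaptic scaffold, stood at 189 to 889.9 (median 540.0), against 78.9 to 477 (median 108) (1.61 ± 0.27). Tmem132d (1.90) and Nmnat3 (1.67) complete the 12 genes named, each higher in 6 of 6 libraries. The 21 Igfn1 nuclei held 55 of the 95 Nmnat3 UMIs in ON cone bipolar nuclei.

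Adhesion and wiring genes were among the 60 lower genes: of 45 tested, 11 were lower and 3 higher. Over all 1103 genes tested 5.44% were lower and 4.35% higher. Cntnap5a (ENSMUSG00000070695, chr1:115684756-116587323, plus strand), a contactin-associated protein, stood at 0 to 229 (median 78.8) CPM in ON cone bipolar nuclei, against 373 to 1135 (median 907) in OFF cone bipolar nuclei (log2 fold change -3.32 ± 0.43, adjusted p = 0.000725), with no overlap. Dscam, a homophilic adhesion molecule of the immunoglobulin family, stood at 0 to 283 (median 72.3), against 462 to 1242 (median 652) (log2 fold change -3.03 ± 0.50, adjusted p = 0.00323), also without overlap. The Slit receptor Robo1 stood at 30.02 to 598 (median 105), against 282 to 1617 (median 1017) (-2.72 ± 0.48 log2), and its ligand Slit2 at 50.9 to 1008 (median 152), against 749 to 2758 (median 1801) (-2.80 ± 0.55). Ncam2 (-2.60), Epha3 (-2.51), Nlgn1 (-1.90) and Tenm1 (-1.54) were lower as well. Outside the list were Nxph1, a secreted neuronal glycoprotein (-2.97), Hs6st3, a heparan sulfate sulfotransferase (-2.63), the phosphatase Ptprk (-2.25), Pde3a, a cyclic nucleotide phosphodiesterase at 74.4 to 252 (median 91.8), against 294 to 816 (median 470.0), without overlap, and Asic2 (-1.96). Lsamp, an adhesion molecule of the immunoglobulin family, was 0.68 against rod bipolar and -0.92 against OFF cone bipolar nuclei on the log2 scale, and Lrrc4c 1.39 and -1.33, each passing in both.

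Channels and receptors again carried calls. Kcnip4 (ENSMUSG00000029088, chr5:48389502-49524907, minus strand), an accessory subunit of A-type potassium channels, stood at 240.1 to 6518 (median 1693) CPM, against 4968 to 12492 (median 9422) (log2 fold change -2.44 ± 0.52, adjusted p = 0.011). The value of 6518 was that of 18-month replicate 3; the other 5 libraries reached at most 2566 and then lay below every OFF cone bipolar library. In 3-month replicate 3, 55 of the 69 Kcnip4 UMIs came from 1 nucleus. Of 12 potassium and HCN channel genes tested 3 were higher, Kcnb2 (1.63 ± 0.30), Kcnab1 and Kcnma1 (0.71 ± 0.21), the calcium-activated channel, and 3 lower, Kcnip4, Kcnd3 (-1.36 ± 0.28), its A-type partner, and Kcnh7 (-2.34 ± 0.53). Scn1a, a voltage-gated sodium channel, was lower (-1.96 ± 0.48). Grm5, a group I metabotropic receptor, was higher (1.26 ± 0.30, 5 of 6 libraries), and Gria4 (-1.56 ± 0.37) and Grik2 (-1.48 ± 0.41), AMPA and kainate receptor subunits, were lower. Sv2b, a vesicle protein, was the 1 release gene of 19 that passed (0.76 ± 0.23), where 9.79% of all 1103 genes tested passed. Nfib (-2.21 ± 0.53) and Meis2 (-0.99 ± 0.28) were the 2 of 8 transcription factors that passed, both lower, and Otx2 did not (log2 fold change 0.82 ± 0.25, adjusted p = 0.0533).

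Amacrine genes moved with this comparison, in which 5.44% of all 1103 genes tested were lower. Both tested members of that list, Tfap2b (-1.34 ± 0.36 log2) and Meis2, were lower, and the 11 listed genes summed to 330.2 to 1637 CPM in ON cone bipolar nuclei, against 1176 to 2169 in OFF cone bipolar nuclei. Their part in the lower genes was not tested. Of 19 rod genes and 61 ribosomal protein genes tested 0 passed, with 0 and 2 at an unadjusted p under 0.05.

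**Figure D4:**
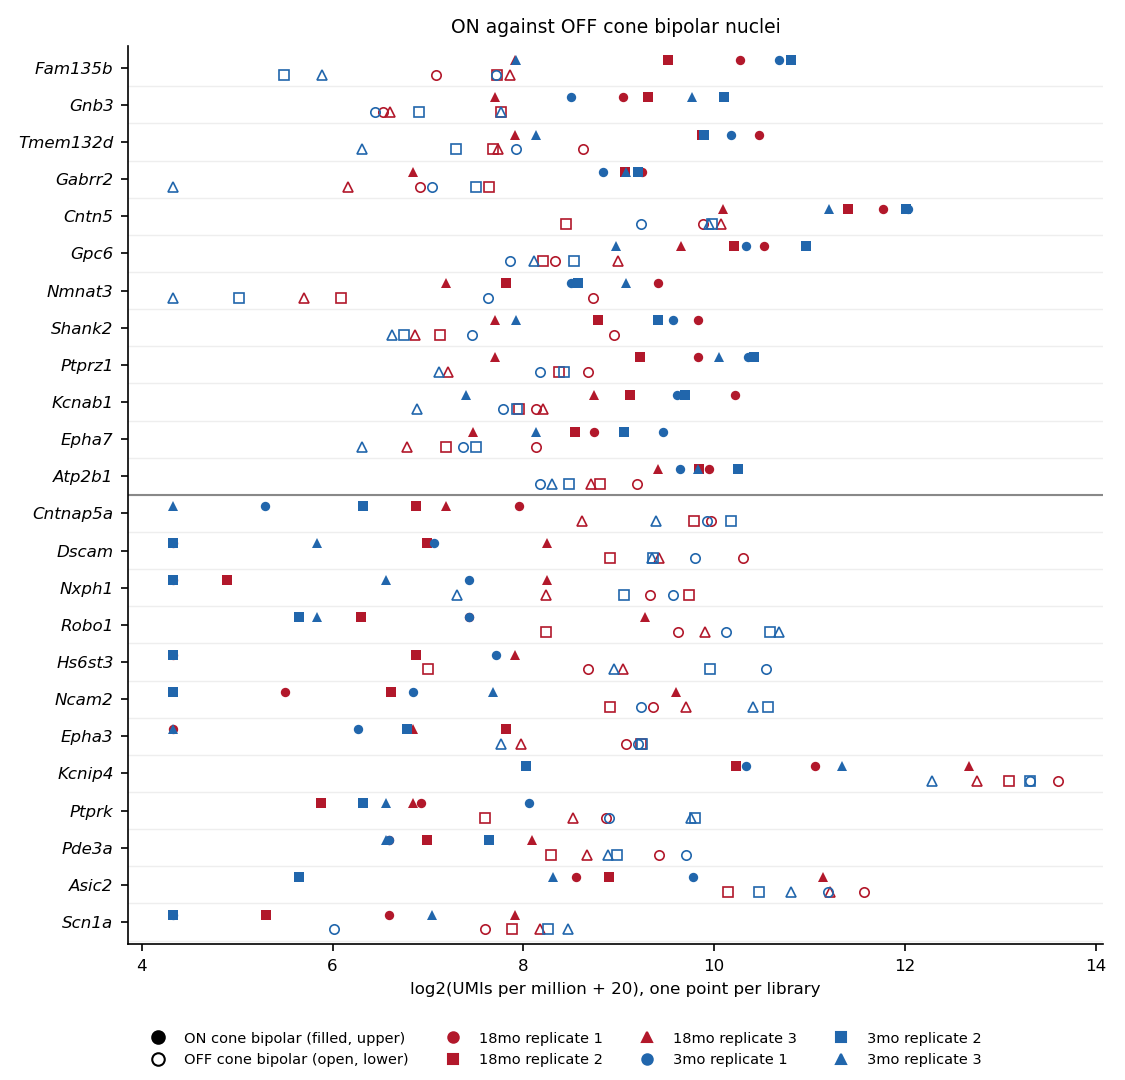
log2(CPM + 20) per library in ON cone bipolar nuclei (filled) and OFF cone bipolar nuclei (open) for the 12 genes with the largest increases (above the line) and decreases (below it) by the naming rule. Of these 24 genes, 3 higher and 3 lower ones show no overlap; in most of the lower genes the highest ON cone bipolar point is 18-month replicate 3 (red triangle).

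The age comparison asked first whether ON cone bipolar nuclei formed a different share of the retina. They were 0.306%, 0.328% and 0.166% of kept nuclei at 18 months, against 0.515%, 0.291% and 0.173% at 3 months. The means were 0.266% ± 0.0877 at 18 months and 0.326% ± 0.173 at 3 months (SD, n = 3 each), and the groups overlapped (difference -0.0599 percentage points, two-sided exact permutation p = 0.8; 3 against 3 libraries cannot give a p under 0.1). Without 18-month replicate 3 the difference was -0.00969, and without 3-month replicate 1 it was 0.0343, the other sign. As a share of the ON cone, OFF cone and rod bipolar nuclei together, ON cone bipolar nuclei were 13.2%, 12.1% and 7.74% at 18 months and 16.8%, 14.4% and 16.4% at 3 months. These shares averaged 11.04% ± 2.91 at 18 months and 15.9% ± 1.29 at 3 months (SD, n = 3 each) and did not overlap (difference -4.83 percentage points, exact permutation p = 0.1, the smallest possible).

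No gene passed the age test in ON cone bipolar nuclei. Of 581 genes tested 0 were called by edgeR's quasi-likelihood test (0%), with 9 at an unadjusted p under 0.05 (1.55%; 5 higher, 0.861%, and 4 lower, 0.688%), 0 by DESeq2 (7 unadjusted), and 0 of 795 without 18-month replicate 3. With at least 3 ON genes required, which left 3 libraries, 5 of 697 genes were called. The smallest adjusted p was 0.997 and the median standard error 0.51 on the log2 scale, so that a difference of 1 log2 unit is about 2 standard errors for the median gene. Library values did not overlap between the ages for 35 genes (6.02%), 17 higher (2.93%) and 18 lower (3.10%) at 18 months. The genes that follow had the smallest unadjusted p among those without overlap, and none passed.

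Thrb, the thyroid hormone receptor beta (ENSMUSG00000021779, chr14:17660261-18038090, plus strand), stood at 279.7, 410.0 and 535 CPM at 18 months, against 133, 60.0 and 186 at 3 months (1.64 ± 0.58 log2). Ralyl, an RNA-binding protein, stood at 305, 322 and 1543 CPM at 18 months, against 247, 90.05 and 112 at 3 months (2.13 ± 0.76), the highest value being that of 18-month replicate 3, without which it was 0.93. Pcdh7, a protocadherin, stood at 610.2, 908 and 945 CPM at 18 months, against 438, 120.1 and 409 at 3 months (1.28 ± 0.55). In 18-month replicate 2, 38 of its 93 UMIs came from 1 nucleus, without which the level was 577. The other genes with higher values were Xkr4 (1.12), Cntn4 (1.11), Cpsf6, a factor of mRNA 3′ end processing (1.11), Lsamp (0.84), Sdk1 (0.76), B3galt1 (0.70) and Atxn1 (0.65). Without 18-month replicate 3 the values were 0.82 for Xkr4, 0.54 for Cntn4 and 0.40 for Lsamp. Sdk1 stood at 407, 429.5 and 472 CPM at 18 months, against 247, 240.1 and 260.3 at 3 months.

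In the other direction, the 20 rod genes summed to 8899, 18967 and 21318 CPM at 18 months, against 15743, 26504 and 29940.1 at 3 months in the same nuclei; 16 of 17 rod genes tested lay below 0 (median -0.53). The 12 Müller glia genes summed to 1526, 2382 and 1574 CPM at 18 months, against 1218, 960.5 and 1525 at 3 months, without overlap, and the 11 amacrine genes to 712, 683 and 1637 CPM at 18 months, against 952, 330.2 and 595 at 3 months, with overlap. The part of these lists in the age values was not tested. Ptprz1, a receptor-type tyrosine phosphatase, stood at 889.9, 576 and 189 CPM at 18 months, against 1294, 1351 and 1041 at 3 months (-1.18 ± 0.53 log2), the lowest value being that of 18-month replicate 3, without which it was -0.81. Agpat3, an enzyme of phospholipid synthesis, stood at 254, 312 and 252 CPM at 18 months, against 399.8, 660.3 and 484 at 3 months (-0.92 ± 0.42). Lower values were also seen for Vipr2 (-1.07, or -0.61 without 18-month replicate 3), Nalcn (-0.91), Csnk1a1 (-0.86), Slc17a7 (-0.82), Nsd1 (-0.64), Ttc14 (-0.64) and Luc7l3 (-0.56).

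**Figure D5:**
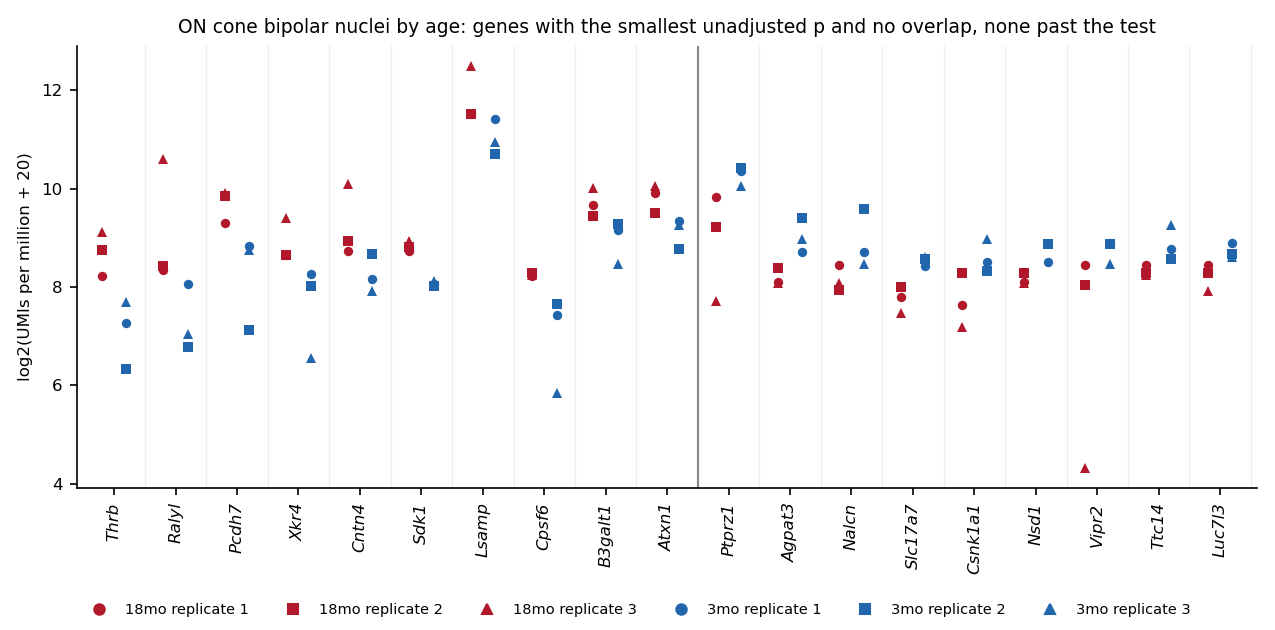
log2(CPM + 20) in ON cone bipolar nuclei of each library at 18 months (red, left) and 3 months (blue, right) for 10 higher and 9 lower genes from those with the smallest unadjusted p and no overlap. No gene passed the test; Ralyl, Cntn4 and Lsamp owe their highest point to 18-month replicate 3.

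No list held a called gene by age. Of the 5 cascade genes tested 3 had values above 0 and 2 below (median 0.25), with Gnao1 at 636, 654 and 283 CPM at 18 months, against 495, 390.2 and 409 at 3 months (0.25 ± 0.46 log2) and Gnb3 at 509, 615 and 189 CPM at 18 months, against 343, 1081 and 855 at 3 months (-0.79 ± 0.57). Of 36 adhesion genes 18 were above and 18 below 0, and of 16 release genes 9 and 7. Cdh9 gave -0.51 ± 0.66 log2. All 9 mitochondrially encoded genes tested lay below 0 (median -0.58, against -0.04 over all genes), as did 26 of 33 ribosomal protein genes (median -0.21); 0 of either passed, and the mitochondrial share of the libraries moved the same way. Of 20 genes of fatty acid synthesis and desaturation 0 reached the count needed for a test; Elovl4, which makes very long fatty acids in photoreceptors, gave 37 UMIs in the 153 nuclei, Elovl2 6, Fads2 and Elovl5 5 each and Fads1 4.

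Whether the age difference itself was unlike that of the other bipolar nuclei was asked with the interaction of age and kind of nucleus, each library being a block. Against rod bipolar nuclei 0 of 2822 genes passed (0%), with 117 at an unadjusted p under 0.05 and 0 by DESeq2 (41 unadjusted). The smallest unadjusted p were those of Slc8a1 (interaction -1.93 ± 0.49 log2), Ptprk (-2.68 ± 0.70) and Ddx6 (-1.93 ± 0.57) among genes below 0. Above 0 they were those of Tmem196, Nfib (2.72 ± 0.88) and St3gal3 (3.02 ± 0.997); Tmem196 had 8 UMIs in ON cone bipolar nuclei at 18 months and 0 at 3 months, so no interaction value is given. Against OFF cone bipolar nuclei 0 of 1690 passed (0%), with 103 at an unadjusted p under 0.05, 0 by DESeq2 (54 unadjusted) and a smallest adjusted p of 0.167, that of Malat1, an abundant nuclear non-coding RNA. In ON cone bipolar nuclei Malat1 stood at 35979, 50702 and 47675 CPM at 18 months, against 30343, 52437 and 65943 at 3 months. In OFF cone bipolar nuclei it stood at 38516, 51941 and 48304 CPM at 18 months, against 53738, 101076 and 102949 at 3 months (interaction 0.82 ± 0.17 log2, not passing).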

How the data were processed

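Nuclear RNA of retinas was counted with the 10x Genomics 3′ kit. The deposited values are raw UMI counts per gene and barcode. Per the file headers they came from Cell Ranger 7.1.0 (replicate 1 of both ages) and 7.2.0 (the others), and per the submitters' processing notes from mm10 with Seurat also used. Barcodes with at least 300 genes and at most 5% mitochondrial UMIs were kept (55230 of 62893). The members, gene lists and rules were chosen with earlier results of these data known. No doublet caller was run; nuclei of over 2 times the median UMIs were left out in an alternative. Counts were summed per library and tested with edgeR 4.0.16 (TMM, filterByExpr, quasi-likelihood; limma 3.58.1, R 4.3.3), Benjamini-Hochberg adjusted over all genes tested, with a term per library between kinds of nuclei and age alone between ages, after a check on simulated data. DESeq2 1.42.0 was an alternative. Shares and sums were made with scipy 1.17.1, numpy 2.4.6 and pandas 2.3.3 under Python 3.11.15, and figures with matplotlib 3.10.9. Coordinates are those of GENCODE M21.

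Genes named were, per direction, the 12 largest calls with at least 50 CPM in the higher group and the same sign in all 6 libraries. By age, where no gene passed, they were the 10 smallest unadjusted p without overlap. Called list members were added. A few genes of these lists are not reported here. The labels do not say that libraries are separate animals, so p-values reflect only how the libraries vary, which may in part be technical. Deviations from the age means correlated at 0.42, 0.33 and 0.38 over 586 genes between libraries of the same replicate number, 1 to 3. Pairs of unlike number gave -0.474 to 0.155. The deviations cancel out over the 3 libraries of an age, so these values depend on each other and do not establish a pairing. No label names a pairing. Intervals are exact binomial at 95% and cover counting error only. Sequences are from RefSeq.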

Additional observations from a re-analysis of the deposited data

How the results depend on the processing

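The share and the counts of calls were recomputed under each alternative. The age count stayed at 0 with other size factors (RLE), no low-count filter, DESeq2, a release term, release 7.2.0 alone, the mitochondrial limit of 2%, deep nuclei left out, each library left out (0 to 0) and the replicate block (0 calls, 22 at an unadjusted p under 0.05). It became 5 (1 higher, 4 lower) with at least 3 ON genes, which left 2 libraries at 18 months and 1 at 3 months, the lone library being assumed to vary like the others; there Lsamp turned to -0.28 and Nalcn to 0.91 on the log2 scale. Against rod bipolar nuclei the count was 183 with RLE factors, 140 with DESeq2, 188 with at least 3 ON genes and 149 without deep nuclei; it moved to 428 with no low-count filter (115 higher, 313 lower), 88 at the mitochondrial limit of 2% (3-month replicate 2 also lacking, at 9 nuclei) and 70 with no library block, and leaving out a library gave 114 to 270. Against OFF cone bipolar nuclei it was 105, 104, 118 and 82 under the same alternatives, and moved to 281 (70 higher, 211 lower), 21 and 60, and leaving out a library gave 49 to 145. Every called gene that was tested again kept its sign. The counts with at least 3 ON genes rest on the same 2 libraries at 18 months and 1 at 3 months. None of the 24 genes named against rod bipolar nuclei lost its call in the 293 refits that still tested it. Not every refit tested every gene: Cdh8 and Nhlrc2 were tested in 9 alternatives each and Cntn5 in 13. Of the 24 named against OFF cone bipolar nuclei 9 lost their call, in 15 of 292 refits (Hs6st3, Asic2, Scn1a, Nmnat3, Nxph1, Kcnip4, Kcnab1, Atp2b1 and Shank2). Both interactions stayed at 0 with RLE factors, no low-count filter, DESeq2 and each library left out. The share difference was -0.0328 among nuclei of at least 1000 UMIs thinned to that depth, -0.0556 at 2% and -0.0181 with 3 ON genes. It was -0.136 to 0.0343 with a library left out, turning to 0.0343 without 3-month replicate 1. The cause of these shifts was not tested. Between nuclei with and without Kcng4, tested with no minimum of nuclei per library (chosen after seeing the data), the count stayed at 0 with RLE factors and no library block and became 31 with no low-count filter (0 higher, 31 lower), 1 with DESeq2 and 0 to 1 with a library left out; no version with the minimum of 10 nuclei was run, since no library reached it. The fewest nuclei per library were 12, with 26887 UMIs.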
